A study of Mus musculus with 4 samples.

Results

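The genes described here are 39 genes of the endoplasmic reticulum (ER) stress response and of the integrated stress response, taken by name from the known response, with earlier results of these data known, out of 48432 gene rows in the table. They comprise 15 ER chaperones and folding enzymes, 3 genes of ER-associated degradation, 4 genes of the stress sensors and Xbp1, and 17 genes of the arm controlled by Atf4. All 39 were found, each as 1 row, and all carried the status OK in both groups. They were measured by messenger RNA sequencing of cardiomyocytes, the contractile cells of the heart, released from mouse hearts by enzyme perfusion through the coronary vessels. The 4 libraries formed 2 groups of 2. The control mice carried the genotype labelled MHC, the other mice were labelled RbFox2 by genotype and Rbfox2_OE by description, for overexpression of the splicing regulator RBFOX2, and both were C57BL x FVB mice given a doxycycline diet for 3 days. Doxycycline and the strain background were thus shared by both groups. The promoter that drives RBFOX2, the age and sex of the mice and the number of hearts per library are not given in the sources used here.

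The ER folds secreted and membrane proteins, among them the ion channels and calcium-handling proteins of the cardiomyocyte, and shares its calcium store with the sarcoplasmic reticulum. When unfolded protein builds up, the chaperone encoded by Hspa5 leaves the membrane sensors encoded by Atf6, Ern1 and Eif2ak3, which raises chaperones and degradation genes. The kinase encoded by Eif2ak3, like the other kinases of the translation factor eIF2, also slows protein synthesis and favours translation of Atf4 mRNA. The ATF4 protein then raises genes of amino acid uptake and synthesis and of cell death, and because this step is translational, the Atf4 mRNA level does not by itself give the activity of the arm.

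Levels are FPKM, fragment numbers scaled to transcript length and to the mapped fragments of the library, so levels of different genes can be set beside each other per length. Each gene had 1 deposited level per group and a pair of bounds from the authors, given in brackets after the level. Single libraries had no levels in the table, so replicate spread could not be measured and no test was possible. A gene was counted as higher or lower where the bounds of the groups did not overlap. The level of these bounds is not stated, and overlapping bounds do not show that a gene was equal in both groups. Log2 ratios are Rbfox2 OE over MHC control with 1 FPKM added to each value, which understates the difference of low genes.

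As a check of the labels, Rbfox2 stood at 14.7 FPKM in control cells (10.4 to 19.0) and at 293 FPKM in Rbfox2 OE (214 to 373). Cardiomyocyte markers were abundant in both groups, with Myl2 at 24688 and 18007 FPKM, but 5 of 10 were lower in Rbfox2 OE and the median log2 ratio of the list was -0.74. The preparations also held RNA of other cells. The summed FPKM of 12 macrophage and leukocyte markers was 142 in the control and 514 in Rbfox2 OE, with 11 of 12 higher, and that of 10 fibroblast markers was 238 and 581, with 7 of 10 higher. The sum of 10 endothelial markers was 515 and 787, that of 9 smooth muscle and pericyte markers 205 and 344, and that of 5 red blood cell markers 56.6 and 295. The part of these cells in the values below was not tested, and fewer cells of a type cannot be told apart from less RNA per cell.

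Averaged over the groups, 35 of the 39 genes reached 1 FPKM and could be set beside the 11697 genes of the table that passed the same filter. Psat1, Phgdh, Fgf21 and Slc7a11 lay under it, with overlapping bounds. Across the table the bounds did not overlap for 16.0% of genes compared, 6.67% being higher and 9.33% lower in Rbfox2 OE, so that 58.3% of these genes were lower. That share was 44.4% after Rbfox2 OE was rescaled by a factor taken without mitochondrial and top genes. Among the stress response genes this held for 6 of 39 (15.4%), 3 higher and 3 lower. Of the 35 that passed the same filter as the table it was 17.1%, a share near that of the table. The 3 higher genes were Slc3a2, Ddit4 and Asns, all of the Atf4 arm, and the 3 lower genes were Herpud1, Atf6 and Chac1. Of these, Asns passed the filter only through its level in Rbfox2 OE. A difference of at least 2-fold on the log2 scale was seen for 5 of the 35 genes compared, which are these 6 without Asns, against 17.0% of the table.

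**Figure D1:**
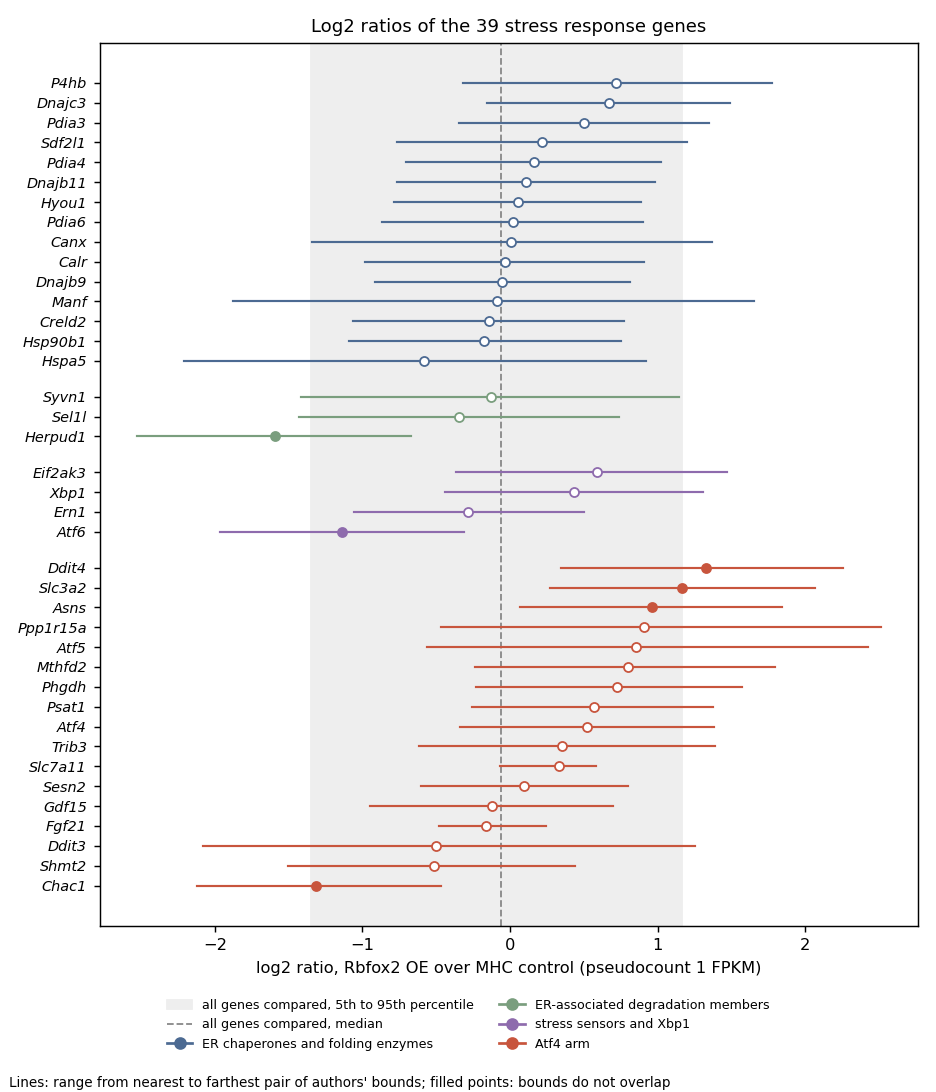
Log2 ratio (x axis, Rbfox2 OE divided by control, 1 FPKM added to each value) for each of the 39 genes (y axis), with a line from the nearest to the farthest pair of the authors' bounds and filled points where bounds did not overlap. The grey band spans the 5th to 95th percentile of the 11697 genes compared, from -1.35 to 1.17. All 15 chaperone points are open, and the 6 filled points are Herpud1, Atf6, Chac1, Ddit4, Slc3a2 and Asns.

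None of the chaperones and folding enzymes had separate bounds (0 of 15), beside 16.0% of all genes compared. The median log2 ratio was 0.02, against -0.06 for all genes compared. Of the 15 log2 ratios, 11 were within 0.25 of 0 in size, as were 30.2% of the genes compared. The summed level of the 15 genes was 1198 FPKM in control cells and 1152 FPKM in Rbfox2 OE.

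Many of these genes share a promoter element, printed here because it is known as a site of the factors that the sensors release. The ER stress response element (ERSE), at which ATF6 and XBP1 act together with NF-Y, was searched on both strands as CCAAT, 9 bases of any kind, then CCACG. The windows ran from 250 bases before to 50 bases after each start site in RefSeq on GRCm38.p6. A window was found for 36 of the 39 genes and not for Atf6, Hyou1 and Manf. The element was present in 7 of 13 chaperone genes with a window and in Syvn1, and in 0 of 17 genes of the Atf4 arm. Of the 27025 genes with a window, 0.137% had it. The 39 genes were taken by name from the known response. Differences in such shares, here and for the elements below, may follow from that choice and are no result about Rbfox2 OE. Each element is given in its own direction with 5 bases on each side, and the capitals mark the element.
Hspa5, chr2:34772025-34772043: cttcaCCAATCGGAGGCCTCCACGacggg.
Calr, chr8:84847075-84847093: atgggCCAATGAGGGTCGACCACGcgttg.
Hsp90b1, chr10:86705533-86705551: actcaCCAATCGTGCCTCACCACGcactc.
Hsp90b1, chr10:86705638-86705656: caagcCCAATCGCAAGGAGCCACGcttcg.
Canx, chr11:50325800-50325818: attgaCCAATCACCACGCTCCACGaagaa.
Pdia6, chr12:17266491-17266509: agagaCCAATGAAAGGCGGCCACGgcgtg.
Dnajc3, chr14:118937827-118937845: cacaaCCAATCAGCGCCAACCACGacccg.
Creld2, chr15:88819520-88819538: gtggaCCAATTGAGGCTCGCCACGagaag.
Syvn1, chr19:6046532-6046550: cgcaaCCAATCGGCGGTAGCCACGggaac.
The centres lay between 35 bases (Syvn1) and 203 bases (Hsp90b1) before the start site. A match of letters is a description and not a shown binding site.

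General chaperones of the Hsp70 and Hsp90 kinds had overlapping bounds. Hspa5, the Hsp70-type chaperone that also holds the sensors inactive, stood at 313 FPKM in control cells (168 to 459) and at 209 FPKM in Rbfox2 OE (98.3 to 319). Its log2 ratio of -0.58 was the lowest of the 15, and the bounds overlapped widely. Hsp90b1, the Hsp90-type chaperone of the ER, stood at 154 FPKM (106 to 203) and 137 FPKM (94.4 to 179). Hyou1, which recharges the Hspa5 protein with nucleotide, stood at 12.4 and 12.9 FPKM. The J-domain partners of the Hspa5 protein did not separate either. Dnajb9 stood at 44.0 and 42.4 FPKM and Dnajb11 at 23.9 and 25.9 FPKM. Dnajc3, which also restrains eIF2 kinases, stood at 9.91 FPKM in control cells (6.91 to 12.9) and 16.3 FPKM in Rbfox2 OE (11.5 to 21.2). The nearest bounds of Dnajc3 overlapped by a small margin.

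The lectin chaperones of glycoproteins were nearly level. Calr, which also buffers ER calcium, stood at 268 FPKM (183 to 352) in the control and 261 FPKM (178 to 344) in Rbfox2 OE. Canx, its membrane-bound relative, stood at 119.6 and 120.3 FPKM. The ratios of Rbfox2 OE over control were 0.976 for Calr and 1.01 for Canx.

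Among the disulfide isomerases, values differed more but bounds still overlapped. P4hb, which is also a subunit of the prolyl hydroxylase that modifies collagen, stood at 77.9 FPKM (49.99 to 106) in the control and 129 FPKM (84.4 to 173) in Rbfox2 OE. Its log2 ratio of 0.72 was the highest of the 15. Pdia3, the partner of the lectin chaperones, stood at 58.5 FPKM (41.4 to 75.6) and 83.0 FPKM (59.2 to 107). Pdia4 stood at 13.7 and 15.4 FPKM and Pdia6 at 38.9 and 39.5 FPKM. The collagen-specific chaperone Serpinh1, no member of the 39, stood at 79.3 FPKM and 73.2 FPKM. The collagen gene Col1a1 stood at 6.19 FPKM (4.23 to 8.14) and 22.8 FPKM (16.0 to 29.5). Serpinh1 and Col1a1 were added after values were seen, and the part of other cells in the value of P4hb was not tested.

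Sdf2l1, Creld2 and Manf encode small ER proteins that stress induces. Sdf2l1 stood at 3.89 and 4.69 FPKM, Creld2 at 7.45 and 6.64 FPKM, and Manf at 52.8 FPKM (24.0 to 81.6) and 49.5 FPKM (21.4 to 77.5). The log2 ratios lay between -0.14 and 0.22. The bounds of Manf were the widest of the 15 relative to its level, and its locus in the table is shared by 12 genes.

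**Figure D2:**
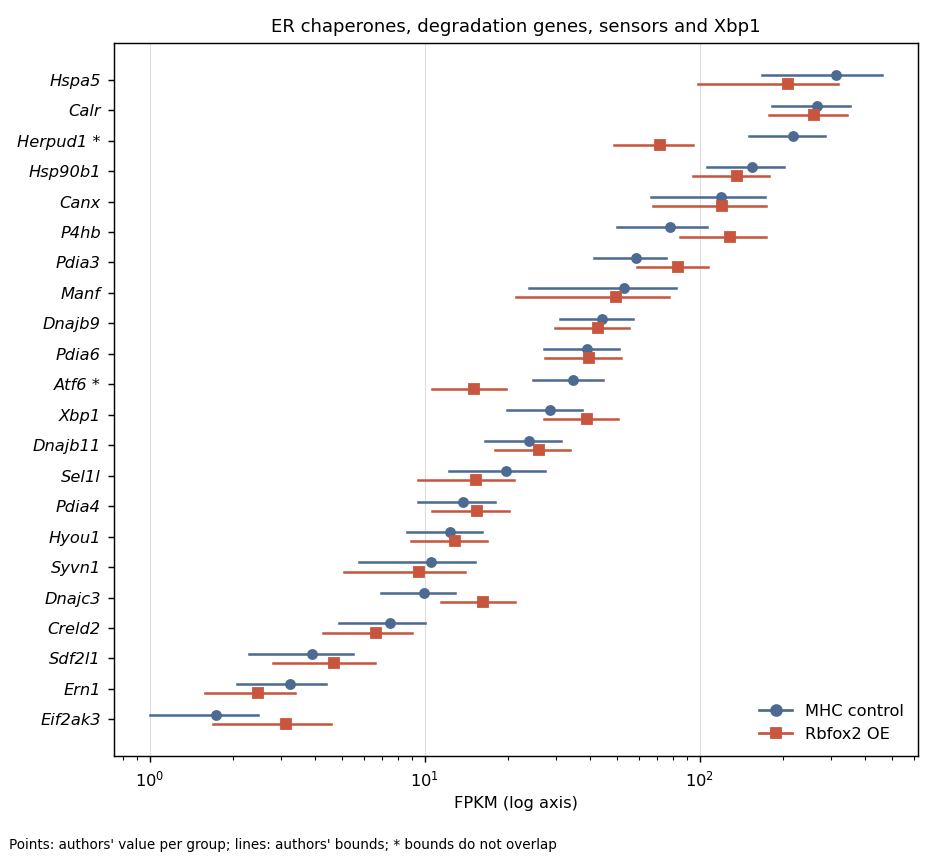
FPKM on a log axis (x axis) for the 22 chaperone, degradation, sensor and Xbp1 genes (y axis, ordered by control level), with circles for MHC control, squares for Rbfox2 OE, lines for the authors' bounds and a star where these did not overlap. The lines of a gene overlap for all but Herpud1, which moved from 219 to 71.7 FPKM, and Atf6, which moved from 34.5 to 15.2 FPKM.

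In the degradation branch 1 of 3 genes had separate bounds, beside 16.0% of all genes compared. Herpud1 encodes an ER membrane protein that gathers the retrotranslocation complex. It is a protein-coding gene of the plus strand on GRCm38 (ENSMUSG00000031770.15, chr8:94386438-94395377). It stood at 219 FPKM in control cells (151 to 286) and at 71.7 FPKM in Rbfox2 OE (48.8 to 94.6), 3.05 times lower, with a log2 ratio of -1.60. In the control it was the 3rd most abundant of the 39 genes, after Hspa5 and Calr, and in Rbfox2 OE the 8th. An antisense gene that overlaps it, Gm15890, stood at 0.122 and 0.362 FPKM, low levels beside those of Herpud1. The partners of the complex had overlapping bounds: the ubiquitin ligase Syvn1 stood at 10.5 and 9.50 FPKM, and its adaptor Sel1l at 19.7 and 15.3 FPKM. Syvn1 overlaps Mrpl49 on the opposite strand, at 24.8 and 25.4 FPKM. How fragments were divided between them is not known, so the value of Syvn1 is uncertain.

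The Herpud1 promoter is shown for the matches it holds, whose part in the level of the gene was not tested. It holds a shorter element of the ERSE family (ERSE-II), searched on both strands as ATTGG, 1 base, then CCACG. It also holds the core TGATGNAA, on the strand opposite to the gene. ERSE-II was found in 0.0444% of genes with a window. Among the 39 it was also found in Dnajb11, which had overlapping bounds and a log2 ratio of 0.11. TGATGNAA, a core of sites for ATF4 with C/EBP factors searched on both strands, was found in 4.51%. The 250 bases before the start site on the plus strand, chr8:94386179-94386428, read as follows, with both matches in capitals.
Herpud1: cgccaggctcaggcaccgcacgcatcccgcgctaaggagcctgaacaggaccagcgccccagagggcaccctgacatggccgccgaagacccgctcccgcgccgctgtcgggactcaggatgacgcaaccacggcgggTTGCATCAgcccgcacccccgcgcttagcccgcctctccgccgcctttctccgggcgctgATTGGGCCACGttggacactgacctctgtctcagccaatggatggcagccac.

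Among the sensors and Xbp1, Atf6 was the 1 gene of 4 with separate bounds, beside 16.0% of all genes compared. Atf6 encodes a membrane-bound transcription factor that is cut in the Golgi when ER folding fails. It is a protein-coding gene of the minus strand (ENSMUSG00000026663.6, chr1:170704674-170867771). It stood at 34.5 FPKM in control cells (24.7 to 44.4) and at 15.2 FPKM in Rbfox2 OE (10.6 to 19.7), 2.28 times lower, with a log2 ratio of -1.14. Atf6 spans 163 kb and was the only one of the 35 genes compared that spans at least 100 kb. Of the 1477 genes of that span in the table, 17.9% were lower and 4.06% higher in Rbfox2 OE, with a median log2 ratio of -0.31. Genes under 50 kb numbered 8532, of which 7.41% were lower, with a median of -0.01. The part of gene span in the value of Atf6 was not tested.

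The other sensors stood at low levels. Ern1, the kinase and nuclease that splices Xbp1 mRNA, stood at 3.23 FPKM in control cells (2.08 to 4.38) and 2.48 FPKM in Rbfox2 OE (1.59 to 3.37). Eif2ak3, the ER-bound eIF2 kinase, stood at 1.74 FPKM (1.003 to 2.48) and 3.13 FPKM (1.70 to 4.56). Xbp1, whose spliced form encodes the active factor, stood at 28.5 FPKM (19.8 to 37.2) and 38.8 FPKM (27.1 to 50.5). None of these 3 had separate bounds, and the value of Xbp1 is for the whole gene and does not tell its spliced from its unspliced form.

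The rest of the secretory pathway was described from lists of genes that are not among the 39. The shares below stand beside 16.0% of all genes compared. In 0 of 60 genes over 3 lists did the bounds separate: 20 further genes of ER-associated degradation (median log2 ratio 0.21), 21 genes of the translocon and signal peptide processing (-0.06) and 19 genes of N-glycosylation (-0.08). Among 29 further folding and redox enzymes 1 gene was higher, the disulfide-forming oxidase Qsox1, at 14.1 FPKM (9.73 to 18.6) and 31.9 FPKM (22.1 to 41.7). Among 21 genes of vesicle coats between ER and Golgi, Sec23a was lower, at 15.4 and 5.75 FPKM, and Copb1 higher, at 12.6 and 23.9 FPKM. Under the rescaling of the groups described in the closing section, the medians of the translocon and glycosylation lists were positive, at 0.09 and 0.06.

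**Figure D3:**
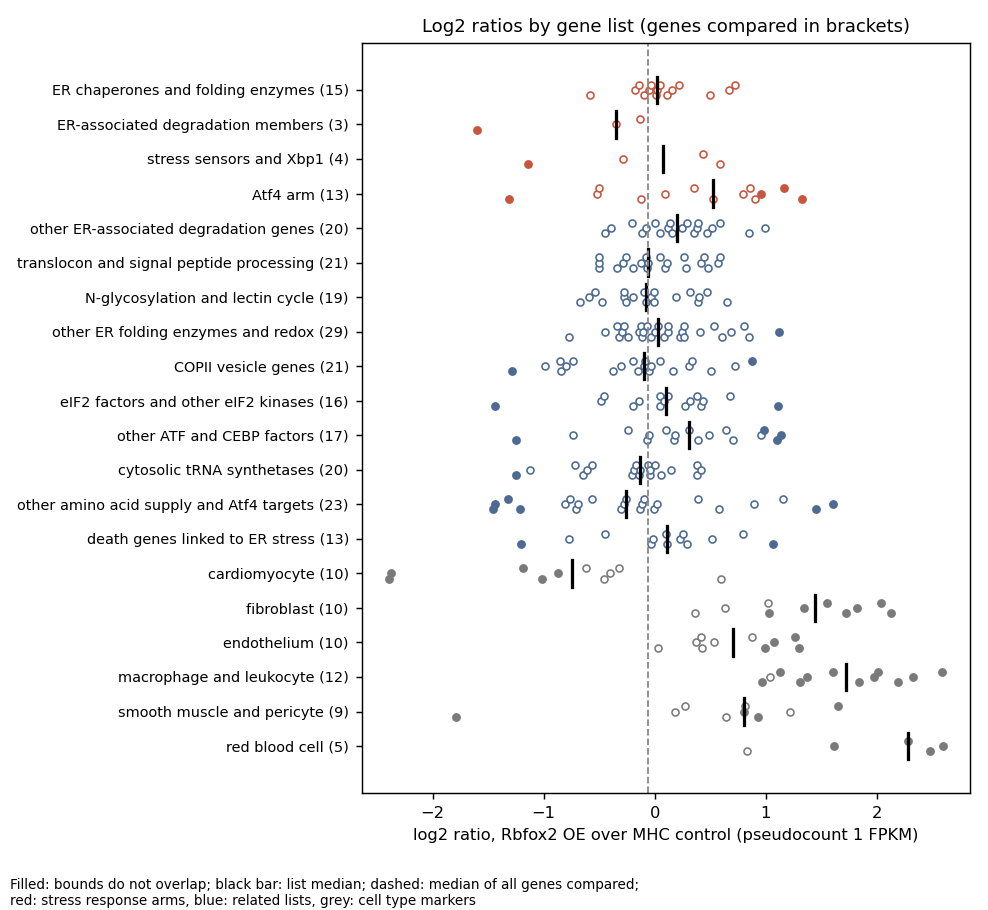
Log2 ratios (x axis, 1 FPKM added to each value) of the genes compared in each list (y axis, number of genes in brackets), with filled points where the authors' bounds did not overlap, a black bar at the list median and a dashed line at the median of all genes compared, -0.06. The chaperone list and the 3 lists of degradation, translocon and glycosylation have no filled point, while 11 of 12 macrophage and leukocyte markers are filled at positive values.

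The Atf4 arm was spread more widely than the chaperones. Of its 17 genes, 13 passed the filter, and bounds separated for 4, 3 higher and 1 lower, beside 6.67% and 9.33% of the table. Asns, 1 of the 3 higher genes, stood at 0.889 FPKM in control cells and passed the filter only through its level in Rbfox2 OE. The median log2 ratio of these 13 was 0.52, and their log2 ratios with 1 FPKM added ranged from -1.31 for Chac1 to 1.33 for Ddit4. The summed level of the 17 genes was 249 FPKM in control cells and 386 FPKM in Rbfox2 OE. The largest levels in that sum in Rbfox2 OE were those of Atf4, Ppp1r15a and Atf5, all with overlapping bounds.

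Matches to the ATF4 core TGATGNAA in the promoter windows are shown because they occur in genes that were higher, lower and unseparated. They were found in 5 of 17 genes of the arm and in Herpud1, and in 0 of 13 chaperone genes with a window. Each is given in its own direction with 5 bases on each side and the core in capitals.
Asns, chr6:7693225-7693232: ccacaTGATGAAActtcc.
Chac1, chr2:119351049-119351056: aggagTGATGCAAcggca.
Herpud1, chr8:94386317-94386324: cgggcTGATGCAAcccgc.
Trib3, chr2:152344039-152344046: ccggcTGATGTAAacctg.
Slc7a11, chr3:50443672-50443679: gtggcTGATGCAAacctg.
Slc7a11, chr3:50443653-50443660: catgaTGATGCAAattct.
Fgf21, chr7:45615622-45615629: acggaTGATGCAAtgggg.
Of these 6 genes Asns was higher, Chac1 and Herpud1 were lower, and the bounds of the other three overlapped. The higher genes Slc3a2 and Ddit4 had no match in their windows, which says only that these letters are not there.

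**Figure D4:**
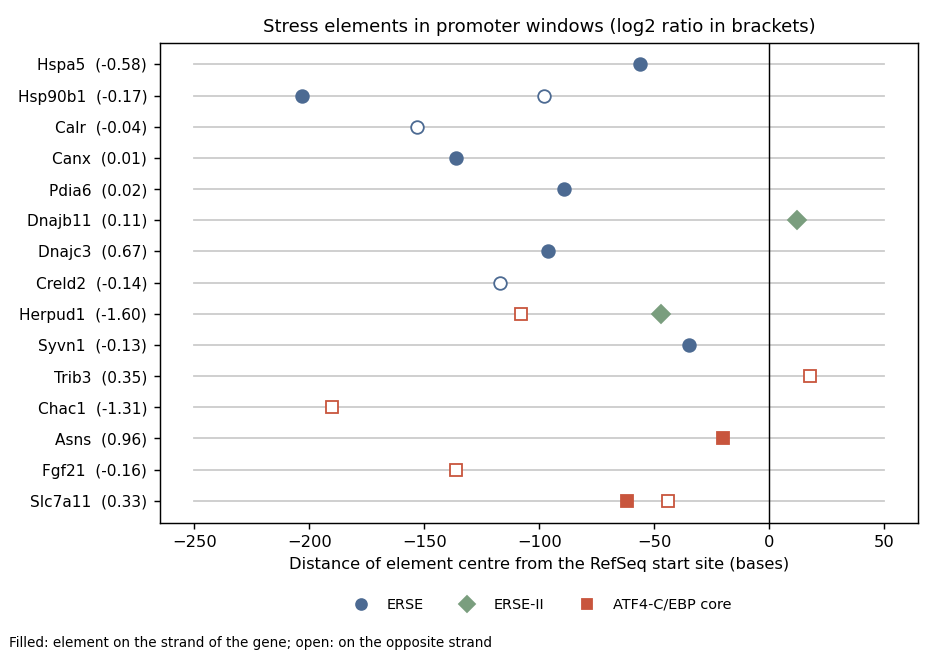
Distance in bases of each element's centre from the RefSeq start site (x axis) for the 15 genes of the 39 with a match (y axis, log2 ratio in brackets), with circles for ERSE, diamonds for ERSE-II and squares for the ATF4 core, filled when on the strand of the gene. Circles lie in chaperone genes and Syvn1, with log2 ratios from -0.58 to 0.67, and squares in Herpud1 and genes of the Atf4 arm, with log2 ratios from -1.60 to 0.96.

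The transcription factors of the arm had overlapping bounds. Atf4 stood at 69.3 FPKM in control cells (48.9 to 89.7) and 99.96 FPKM in Rbfox2 OE (70.8 to 129). Atf5, a relative that responds to stress in mitochondria as well, stood at 32.6 FPKM (15.2 to 49.9) and 59.8 FPKM (33.5 to 86.0). Ddit3, which encodes the death-linked factor CHOP, stood at 33.0 FPKM (13.9 to 52.2) and 23.1 FPKM (11.6 to 34.5). Values of Atf4 and Atf5 were larger in Rbfox2 OE and that of Ddit3 smaller. Atf5 overlaps Nup62 on the opposite strand, at 20.5 and 28.1 FPKM, and Ddit3 overlaps Mars, at 16.5 and 7.04 FPKM, and how fragments were divided between each pair is not known, so both values are uncertain.

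Of the 3 higher genes 2, Slc3a2 and Asns, are genes of amino acid uptake and synthesis. That is a part of the higher genes, and it cannot be set against the 6.67% of all genes compared that were higher. Further genes of amino acid supply and other known ATF4 targets, given below, had a median log2 ratio of -0.26. Slc3a2 encodes the heavy chain shared by several amino acid exchangers of the cell surface (ENSMUSG00000010095.13, chr19:8706882-8723369, minus strand, protein-coding). It stood at 22.9 FPKM in control cells (15.6 to 30.2) and at 52.6 FPKM in Rbfox2 OE (36.6 to 68.6), a ratio of 2.29 and a log2 ratio of 1.16. Its light chain for cystine, Slc7a11, was barely detected, at 0.0261 FPKM (0 to 0.139) and 0.294 FPKM (0.0873 to 0.500). Asns encodes asparagine synthetase (ENSMUSG00000029752.12, chr6:7675169-7693254, minus strand, protein-coding). It stood at 0.889 FPKM (0.341 to 1.44) and 2.68 FPKM (1.55 to 3.81), a ratio of 3.02 and a log2 ratio of 0.96. Asns passed the filter through its level in Rbfox2 OE, and its nearest bounds were close.

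The genes of serine synthesis and folate metabolism were low, except Shmt2. Phgdh, the first enzyme of serine synthesis, stood at 0.334 FPKM (0 to 0.697) and 1.21 FPKM (0.444 to 1.97), and Psat1, the next, at 0.600 FPKM (0.183 to 1.02) and 1.38 FPKM (0.689 to 2.07). Mthfd2, a folate enzyme of mitochondria, stood at 1.07 FPKM (0.408 to 1.73) and 2.60 FPKM (1.32 to 3.89). These 3 values were each larger in Rbfox2 OE, with bounds that overlapped. Shmt2, which turns serine into glycine in mitochondria, went the other way, at 23.2 FPKM (15.7 to 30.7) and 15.9 FPKM (10.1 to 21.6), also with overlap. Shmt2 overlaps Ndufa4l2 on the opposite strand, at 8.96 and 14.2 FPKM, and how fragments were divided between them is not known.

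Of the genes that limit growth and translation, Ddit4 was higher. Ddit4, an inhibitor of mTORC1 that also answers to glucocorticoids and low oxygen, is a protein-coding gene of the minus strand (ENSMUSG00000020108.3, chr10:59949669-59951834). It stood at 18.9 FPKM in control cells (13.1 to 24.8) and at 49.0 FPKM in Rbfox2 OE (31.7 to 66.4), a ratio of 2.59. Its log2 ratio was 1.33. Sesn2, another inhibitor of mTORC1, stood at 1.61 and 1.79 FPKM. Ppp1r15a, which directs a phosphatase to eIF2 and so restores translation, stood at 37.7 FPKM (16.9 to 58.6) and 71.6 FPKM (42.0 to 101), with overlap.

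Chac1 was the lower gene of the arm. It encodes an enzyme that degrades glutathione (ENSMUSG00000027313.3, chr2:119351229-119354381, plus strand, protein-coding). It stood at 4.58 FPKM in control cells (2.91 to 6.24) and at 1.25 FPKM in Rbfox2 OE (0.667 to 1.83), 3.67 times lower, with a log2 ratio of -1.31. The pseudokinase gene Trib3, like Chac1 a gene of the late, death-linked response, stood at 0.961 and 1.501 FPKM with overlapping bounds. The secreted factors Gdf15 and Fgf21 were low in both groups, at 1.48 and 1.28 FPKM and at 0.192 and 0.0672 FPKM. The 250 bases before the start site of Chac1, chr2:119350992-119351241 on the plus strand, hold the core in capitals, read here on the strand of the gene.
Chac1: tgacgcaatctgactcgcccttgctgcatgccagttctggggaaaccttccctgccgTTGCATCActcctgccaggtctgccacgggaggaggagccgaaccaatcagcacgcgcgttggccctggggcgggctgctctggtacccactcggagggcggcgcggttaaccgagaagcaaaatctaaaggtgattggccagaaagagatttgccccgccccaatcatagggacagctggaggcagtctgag.

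**Figure D5:**
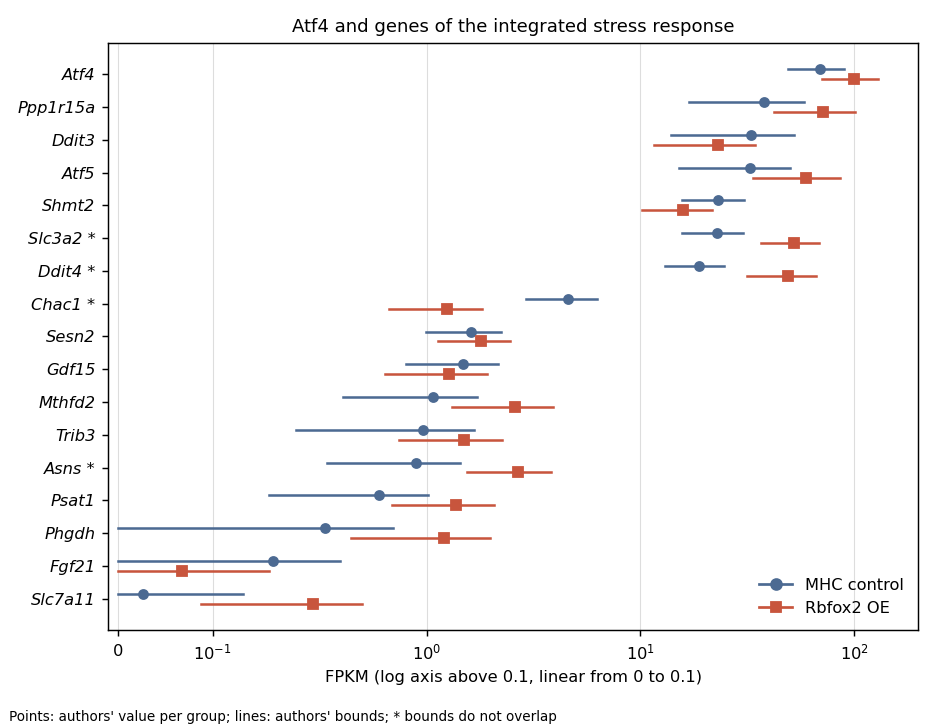
FPKM (x axis, logarithmic above 0.1 and linear below) for the 17 genes of the Atf4 arm (y axis, ordered by control level), with circles for MHC control, squares for Rbfox2 OE, lines for the authors' bounds and a star where these did not overlap. Slc3a2 and Ddit4 lie near 20 FPKM in control cells and near 50 FPKM in Rbfox2 OE, and Chac1 moves in the opposite direction.

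Genes around the Atf4 arm were mixed, and their counts too stand beside 16.0% of the table. Of 16 further genes of eIF2 and its kinases, Ppp1r15b, the constitutive partner of the eIF2 phosphatase, was higher at 4.10 and 10.02 FPKM, and Oma1, a mitochondrial protease that relays stress to eIF2 kinases, was lower at 23.4 and 7.99 FPKM. Of 17 further ATF and C/EBP factors 3 were higher and 1 lower: Cebpd stood at 11.6 and 26.9 FPKM, Cebpa at 1.56 and 4.51 FPKM, Creb3l1 at 2.67 and 6.29 FPKM, and Atf3, a stress factor downstream of ATF4, at 89.9 and 37.4 FPKM. After centring or rescaling no gene of this list was lower, so the bounds of Atf3 then overlapped. Of 20 cytosolic tRNA synthetases, several of which are known ATF4 targets, Iars was lower at 18.8 and 7.32 FPKM, and none was higher.

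Further genes of amino acid supply and other known ATF4 targets also split. Of the 23 compared, 2 were higher and 4 lower, with a median log2 ratio of -0.26. Nupr1, a stress-induced nuclear protein, stood at 4.22 FPKM (2.31 to 6.14) and 14.9 FPKM (9.40 to 20.4), and the glutamine transporter Slc1a5 at 3.05 FPKM (1.31 to 4.78) and 10.1 FPKM (5.43 to 14.7). Vegfa, the endothelial growth factor, stood at 141 FPKM (87.7 to 194) and 50.8 FPKM (28.5 to 73.2). The other lower genes were Gpt2, Aldh1l2 and Slc7a1, with log2 ratios of -1.44, -1.32 and -1.22. Of 13 death genes linked to ER stress, the ER-associated caspase Casp12 was higher, at 2.24 and 5.76 FPKM, and the kinase Map3k5 lower, at 12.3 and 4.81 FPKM, though the bounds of Map3k5 overlapped after centring or rescaling.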

How the data were processed

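Messenger RNA of mouse cardiomyocytes was measured in 4 libraries, grouped by their titles into MHC control and Rbfox2 OE. The authors deposited FPKM values from Cuffdiff, per the file headers, with 1 value, 2 bounds and a status per gene and group. The submitters' processing notes name Cuffdiff 2.2.1, STAR 2.4.2a and Trimmomatic and the builds GRCm38 and mm10. The annotation, the normalization mode and the use of strand are not given in the sources used here. FPKM values state no fragment numbers, so depth is unknown.

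With pandas 2.3.3, the values of 110 gene names held by several rows were added up and log2 ratios computed with a pseudocount of 1 FPKM. Genes averaging 1 FPKM or more over both groups were compared. No p-values were computed. Gene positions came from GENCODE M21 on GRCm38. Cuffdiff divides fragments among overlapping genes, and 19 of the 39 members overlap another annotated gene, 15 of them 1 on the opposite strand. All members were named, and from each related list up to 3 genes with separate bounds and the largest log2 ratios. Col1a1, Serpinh1, Creb3l1, Myl2, Gpt2, Aldh1l2 and Slc7a1 were added after values were seen. Members and lists were chosen with earlier results of these data known. The calculations were tested on simulated data. Alternatives covered the pseudocount, the filter, 2 scalings, the status, shared loci and the fold threshold.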

Additional observations from a re-analysis of the deposited data

How the results depend on the processing

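No paired analysis was possible because each group has 1 deposited value per gene, and for the same reason no library could be left out in turn. Of the 8 alternatives run on members, only the 2 scalings could change whether bounds overlap, since the others leave the bounds unchanged. Under these 2 scalings none of the 39 genes gained or lost separate bounds. Log2 ratios of 4 genes changed sign under rescaling, all with overlapping bounds (Calr, Dnajb9, Manf and Syvn1). Those of Calr and Dnajb9 changed sign under centring as well. Rescaling without mitochondrial and top genes raised log2 levels of Rbfox2 OE by 0.16 and took the median of all genes compared from -0.06 to 0.07, that of the chaperones from 0.02 to 0.17 and that of the Atf4 arm from 0.52 to 0.67, with 14 in place of 13 genes passing the filter. A pseudocount of 0.1 raised the log2 ratios of Phgdh and Slc7a11 to 1.59 and 1.64 and lowered that of Fgf21 to -0.81.

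Counts that moved by more than 1.5 times were these. Keeping only loci of 1 gene left 5769 of the 11697 genes compared. Of these 5769, 1125 had separate bounds and 983 were at 2-fold, against 1871 and 1987 of the 11697. These counts fell along with the number of genes compared. The setting gave 0 of 3 degradation and sensor genes with separate bounds, since Herpud1 and Atf6 share their loci. It gave 0 folding and redox enzymes, 1 vesicle coat gene, 1 gene of eIF2 and its kinases, 1 ATF or C/EBP factor and 0 tRNA synthetases, and Rbfox2 itself had no value there. A mean of at least 5 FPKM left 7 genes of the Atf4 arm, 2 of them with separate bounds, and gave 2 ATF and C/EBP factors and 1 death gene. Rescaling gave 2 folding and redox enzymes and 1 death gene, and centring 1 death gene. The 2-fold count of 1987 became 863 with a pseudocount of 5, 4520 at 1.5-fold and 290 at 4-fold. For other counts the cause was not tested. Depth in fragments is unknown, which limits Slc7a11, Fgf21, Phgdh and Psat1 most.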

Other observations

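Over the whole table, genes carrying the promoter elements were few for ERSE and many for the ATF4 core. Of the genes with an ERSE match, 13 passed the filter, 8 of which are among the 39, and bounds separated for 1 of the 13, a lower gene that is not among the 39. Of the 8 genes compared with an ERSE-II match, Herpud1 was the 1 gene with separate bounds. Of 233 genes compared with a TGATGNAA match, 28 were higher and 25 lower in Rbfox2 OE, 22.7% in all, beside 16.0% of all genes compared, with a median log2 ratio of -0.04. The X-box element TGACGTGG (UPRE), searched on both strands, was found in 0.714% of genes with a window and in 0 of the 36 stress response genes with one. Of the 92 genes compared that carry it, 4 were higher and 10 lower, 15.2% in all, beside the same 16.0%.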
